A study of Danio rerio with 15 samples.

Results

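At 3 hours post fertilization (hpf) a zebrafish embryo still lives almost wholly on RNA and protein that its mother loaded into the egg. The comparison described here set 2 pore-depleted embryo libraries at 3 hpf, MZnup133 and Melys, each against the wildtype library that its title names as the control. It followed RNA that lay apart from wildtype in the same direction in both pairs. These were 4 of the 15 libraries of the series. Mean levels reached 1 FPKM in 13501 genes, the genes tested here. Of these, 622 (4.61%) were at least 2-fold apart from the matched wildtype in the same direction in both pairs at 3 hpf, 316 (2.34%) of them higher and 306 (2.27%) lower in the depleted embryos. Without that filter on low values the number was 688 of the 23726 genes in the table.

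All samples were dechorionated whole embryos, and poly(A) RNA was measured. MZnup133 carries a nup133 knockout per the labels, Melys an elys knockout, and the wildtype embryos neither. A further line, Tgnup133, overexpresses nup133 from a transgene whose promoter the labels do not give. It has the same wildtype control as MZnup133. Its levels are given beside some genes, and its 2-fold differences are counted once over the shared set, without a test. The letters MZ and M are commonly read as maternal-zygotic and maternal. The labels state neither how the alleles were made nor how many embryos or clutches were pooled, and each depleted line had 1 library at each stage. The wildtype columns of the value table carry no line name, so each was given to the pair whose mutant columns begin with the same number.

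Nup133 is a scaffold subunit of the Y complex, a Y-shaped unit whose copies assemble into the rings of the nuclear pore, through which all traffic between nucleus and cytoplasm passes. Elys, the product of the gene named ahctf1 in zebrafish, binds chromatin at the end of mitosis and recruits the Y complex, so that pores form in the new nuclear envelope. In fish, the mother stores messenger RNA in the growing oocyte. The embryo divides rapidly on this supply and then begins its own transcription while the maternal RNA is degraded, in the maternal-to-zygotic transition. Levels are given in FPKM, which is sequenced fragments divided by transcript length and by the mapped total of each library. Differences are on the log2(FPKM + 1) scale, which understates the change of genes with low values. In whole embryos, fewer cells of a type and less RNA per cell cannot be told apart.

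The 4 libraries at 3 hpf were alike in genes present and in summed FPKM, and less alike in genes listed at 0. They held 12356 to 12524 genes at 1 FPKM or more, and their FPKM summed to 508714.6 to 526919.4. Genes listed at 0 numbered 7955 in the wildtype of the nup133 pair and 8341 in MZnup133. In the elys pair they numbered 7529 in wildtype and 8611 in Melys. The depth is unknown, because the values carry no read counts. Egg and germ line markers were present in every library, with a summed level of 5390 FPKM in the wildtype of the nup133 pair, 4520 in MZnup133, 5580 in the wildtype of the elys pair and 5640 in Melys, and none of the 12 was at 0. Markers of blood, leukocytes, liver and yolk proteins, and skeletal muscle summed to at most 5.85 FPKM in any of these libraries. Skeletal muscle markers summed to 5.85 FPKM in wildtype and 0 in MZnup133, with 2 and 8 of 8 at 0. In the elys pair they summed to 2.41 in wildtype and 0.0463 in Melys, with 4 and 7 at 0. Ovarian follicle markers summed to 98.8 FPKM in the wildtype and 114 in MZnup133, with 3 and 4 of 7 at 0. In the elys pair they summed to 97.9 in the wildtype and 67.2 in Melys, with 2 and 3 at 0. The gene cyp17a1 made up most of each sum, at 86.2 FPKM in wildtype and 79.8 in MZnup133, and at 86.5 in wildtype and 58.2 in Melys. The gene sox9b was at 11.1 and 32.8 FPKM, and at 10.3 and 5.88, in the same order. The share of FPKM from mitochondrially encoded genes was 7.29% and 7.37% in wildtype, 6.53% in MZnup133 and 4.76% in Melys.

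The targeted transcripts were read first. The nup133 transcript (ENSDARG00000010078) was at 12.6 FPKM in wildtype and 0.431 in MZnup133, and at 9.35 in wildtype and 9.83 in Melys. It fell in MZnup133 by 3.15 ± 0.29 (SE, log2) with an adjusted p of 0.0276 (limma, Benjamini-Hochberg). The ahctf1 transcript (ENSDARG00000077530) was at 18.7 FPKM in wildtype and 13.5 in the library labelled Melys, and at 20.3 in wildtype and 23.07 in MZnup133. The Melys difference of −0.48 ± 0.16 did not pass (adjusted p = 0.21, limma), so the level of this transcript does not check the Melys label.

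Over the genes tested, 2543 (18.8%) lay at least 2-fold apart in the MZnup133 pair at 3 hpf and 2164 (16.0%) in the Melys pair. The 2 wildtype libraries of the stage lay 2-fold apart from each other for 1055 genes (7.81%). Beside the 622 genes with shared direction, 281 were 2-fold apart in opposite directions, 159 of them higher in MZnup133 and lower in Melys and 122 the reverse. Across all genes tested, the differences of both pairs had a Pearson r of 0.19 and a Spearman rho of 0.23. Genes are not independent replicates, and the pairs share no library. When each line was set against the wildtype of the other pair, 631 genes passed the same rule.

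**Figure D1:**
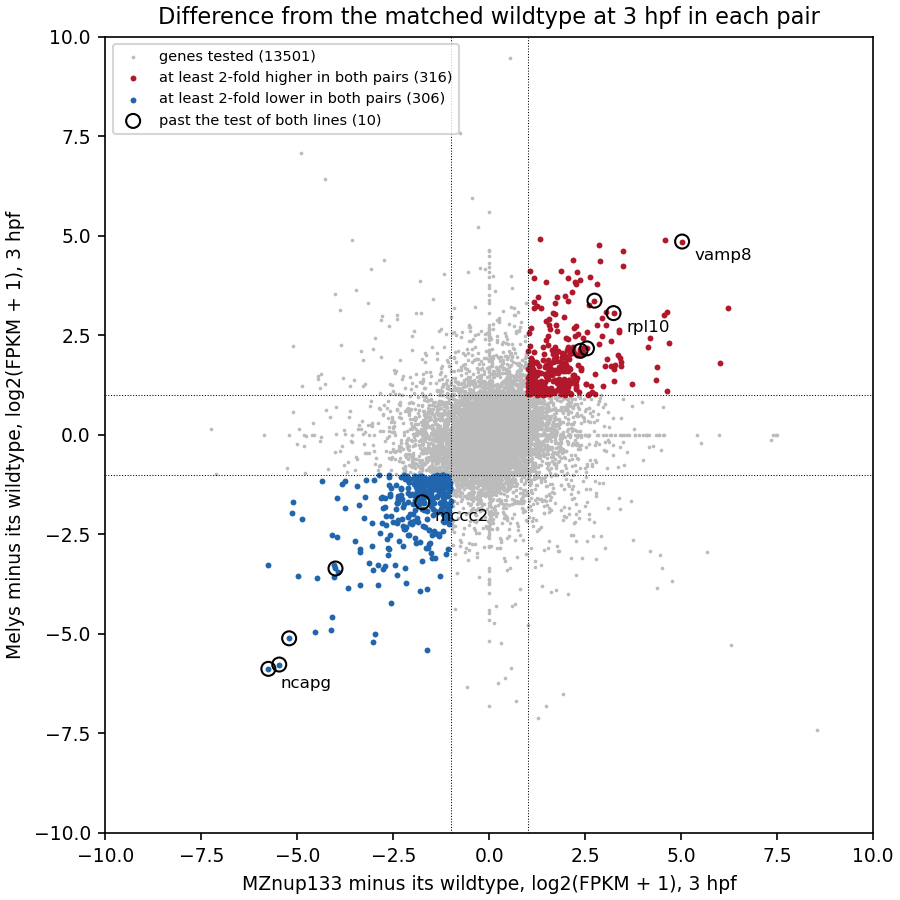
Each point is 1 gene tested, with its difference from the matched wildtype at 3 hpf in MZnup133 on the horizontal axis and in Melys on the vertical axis, both in log2(FPKM + 1). The 316 red and 306 blue genes lie at least 2-fold apart in the same direction in both pairs, the dotted lines mark 2-fold, and black circles mark the 10 genes that passed the test of both lines.

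The members of this shared set were of lower abundance than the genes tested as a whole. Their median level over the 4 libraries was 5.58 FPKM against 12.7 for all genes tested. Of the 622, 607 had a mean of at least 1 FPKM over these 4 libraries, 332 of at least 5 and 105 of at least 20. The wildtype libraries were themselves 2-fold apart for 78 members. In 483 members the differences of both pairs lay within 1 of each other on the log2 scale. Both depleted libraries lay above, or both below, both wildtype libraries in 606 members and in 5865 (43.4%) of all genes tested. The rule used these same values, so the first count follows largely from it. The rule drew the line between near-equal values. The vesicle transport gene fyco1b at 1.241 and 1.001 and the mitochondrial insertase gene oxa1l at −1.202 and −1.001 lay just inside, while enkur at 1.238 and 0.998 and rex1bd at 0.998 and 0.999 lay just outside. Of the members, 179 carry a clone name or a zgc name in place of a gene symbol. Tgnup133, which is not depleted, was at least 2-fold above its wildtype in 78 of the 316 higher members. It was at least 2-fold below in 88 of the 306 lower ones. That wildtype library is also the control of MZnup133, so these counts follow in part from the rule. The share over all genes tested was not counted.

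A test of both lines together asked which genes differed by more than the lines disagreed with each other. It passed 10 genes (0.0741%) at 3 hpf, 5 higher and 5 lower (0.037% each), at an adjusted p under 0.05 (limma, Benjamini-Hochberg), and 1646 genes had an unadjusted p under 0.05. The residual spread came from the 3 stages with 3 degrees of freedom. Without the libraries of 4 and 4.5 hpf limma passed 0 genes, with 1272 at an unadjusted p under 0.05, and the count was also 0 when any of the 4 libraries at 3 hpf was left out, with 970 to 1231 at an unadjusted p under 0.05. A fit with 1 wildtype mean per stage in place of a level for each pair passed 120 genes, 49 higher and 71 lower.

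Among the 5 genes that were higher, vamp8 (ENSDARG00000024116) encodes a vesicle SNARE protein of late endosomal fusion. It was listed at 0 in both wildtype libraries and stood at 31.6 FPKM in MZnup133 and 27.9 in Melys (adjusted p = 0.0107). It remained so at later stages, listed at 0 in the 4 wildtype libraries of 4 and 4.5 hpf and between 24.4 and 33.6 FPKM in the depleted ones. Tgnup133 had 0.185 FPKM at 3 hpf.

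The large ribosomal subunit protein gene rpl10 (ENSDARG00000025581) stood at 20.2 and 26.2 FPKM in wildtype, 199 in MZnup133 and 225 in Melys. Both depleted libraries lay far above both wildtype ones, a rise of 3.15 ± 0.20 (SE, log2; adjusted p = 0.0107). For slmapb (ENSDARG00000020764), whose human counterpart is a membrane-anchored subunit of the STRIPAK phosphatase complex, the levels were 19.6 and 13.9 FPKM in wildtype, 137 in MZnup133 and 153 in Melys, a rise of 3.06 ± 0.20 (adjusted p = 0.0107). The gene kctd17 (ENSDARG00000056050) encodes an adaptor of cullin ubiquitin ligases in human cells. It had 7.15 and 8.06 FPKM in wildtype, 41.3 in MZnup133 and 38.1 in Melys, a rise of 2.24 ± 0.21 (adjusted p = 0.0479). In none of these did the groups overlap. The calls used these same values, and 43.4% of all genes tested also had no overlap. Tgnup133 had 28.6, 17.3 and 16.6 FPKM of the same 3 transcripts.

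The fifth, si:ch211-262h13.3 (ENSDARG00000070898), had 16.0 and 10.1 FPKM in wildtype, 98.3 in MZnup133 and 49.2 in Melys, a rise of 2.36 ± 0.18 (adjusted p = 0.0226). Its RNA also accumulated in wildtype embryos. There the level climbed to 71.1 and 67.4 FPKM at 4 hpf and to 153 and 140 at 4.5 hpf. In the depleted lines it was 70.5 and 57.3 FPKM at 4 hpf and 80.6 and 97.6 at 4.5 hpf, where the test no longer passed (adjusted p = 0.757 and 0.0805).

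Among the 5 genes that were lower, ncapg (ENSDARG00000070109) encodes a subunit of condensin I, which compacts mitotic chromosomes. It was at 52.97 and 65.4 FPKM in wildtype, listed at 0 in MZnup133 and at 0.127 in Melys (adjusted p = 0.0107). Tgnup133 had 17.96 FPKM. The gene mettl2a (ENSDARG00000008105), whose human counterpart methylates transfer RNA, was at 43.4 and 53.6 FPKM in wildtype and listed at 0 in both depleted libraries (adjusted p = 0.0107). It was listed at 0 in both depleted lines at 4 and 4.5 hpf as well, against 39.6 to 54.5 FPKM in wildtype. At 3 hpf its level in Tgnup133 was 22.1 FPKM. The gene odf3l2a (ENSDARG00000014209) was at 36.1 and 48.0 FPKM in wildtype, listed at 0 in MZnup133 and at 0.416 in Melys (adjusted p = 0.0107). In Tgnup133 it was at 76.8 FPKM.

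For zgc:113208 (ENSDARG00000035610) the levels were 21.9 and 16.0 FPKM in wildtype, 0.424 in MZnup133 and 0.659 in Melys, so that it fell by 3.68 ± 0.34 (SE, log2; adjusted p = 0.0479). Tgnup133 was at 0.793 FPKM. The gene mccc2 (ENSDARG00000017571) encodes a subunit of methylcrotonyl-CoA carboxylase, a mitochondrial enzyme of leucine breakdown. It had 86.9 and 99.7 FPKM in wildtype, 25.2 in MZnup133, 30.1 in Melys and 46.6 in Tgnup133, and fell by 1.72 ± 0.15 (adjusted p = 0.0395). All 10 calls were lost without the filter on low values and without the later libraries. With a pseudocount of 0.1 the calls of ncapg (adjusted p = 0.0862) and kctd17 (0.0567) were also lost, and that of kctd17 with scaling to the genes outside the mitochondrial genome (0.0522). Without a variance trend rpl10, slmapb, si:ch211-262h13.3, kctd17 and mccc2 were lost. The call for zgc:113208 was lost with a pseudocount of 0.1 (adjusted p = 0.118) or 5 (0.0699), at a minimum mean of 5 FPKM (0.0623), with scaling outside the mitochondrial genome (0.0586) and with the Tgnup133 libraries in the fit (0.0515).

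**Figure D2:**
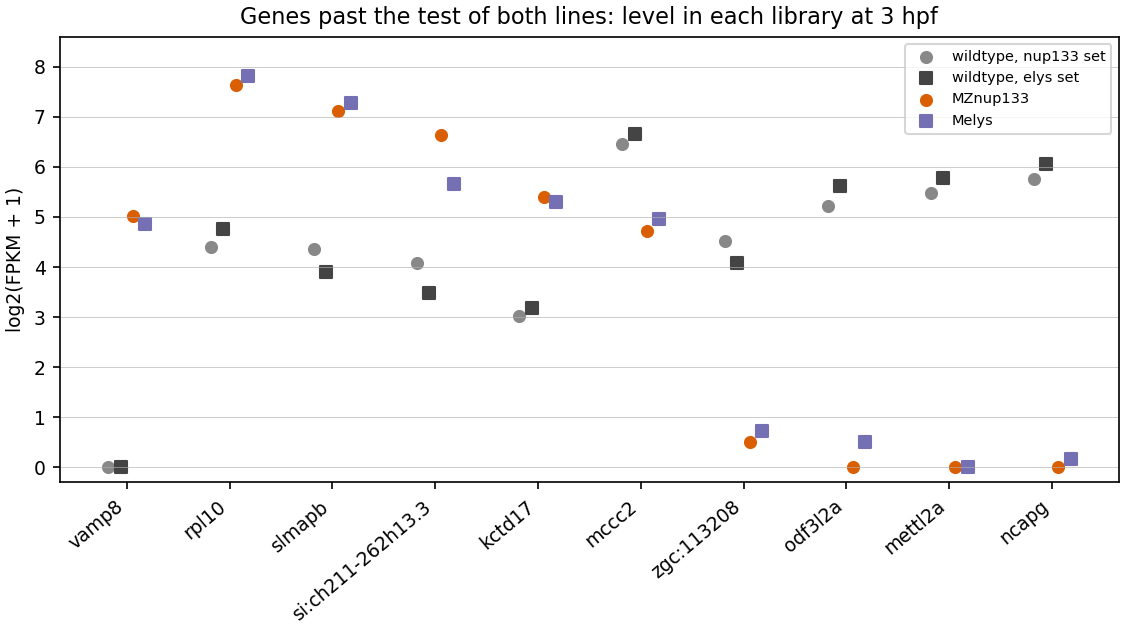
Level of each of the 10 genes that passed the test of both lines, as log2(FPKM + 1) in each of the 4 libraries at 3 hpf (1 library per point, no error). The depleted libraries lie above both wildtype libraries for the 5 genes on the left and below both for the 5 on the right.

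Many of the largest shared differences were near-complete gains and losses. The counts given here include genes that passed the test, vamp8 among the gains and ncapg, mettl2a, odf3l2a and zgc:113208 among the losses. In 17 members the RNA was under 1 FPKM in both wildtype libraries and at 5 or more in both depleted ones, and in 33 it was the reverse. Between the wildtype libraries of the stage, 121 genes were under 1 FPKM in 1 library and at 5 or more in the other. That count needs only 2 libraries and takes either direction. The counts of 17 and 33 each need all 4 libraries and 1 direction, so they are not on the same scale. Among the gains, spock1, for a secreted proteoglycan, was at 0 and 0.337 FPKM in wildtype, 22.9 in MZnup133 and 38.8 in Melys (adjusted p = 0.0581). The neuronal transcription factor gene neurod6b was at 0.244 and 0.711 FPKM in wildtype, 12.9 in MZnup133 and 31.5 in Melys (adjusted p = 0.0799). CABZ01059627.1 was at 0.927 and 0.333 FPKM in wildtype, 20.4 in MZnup133 and 31.6 in Melys (adjusted p = 0.1). Each missed the threshold at 3 hpf. Their groups did not overlap, which follows largely from the rule and held for 43.4% of all genes tested.

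In 6 genes at 5 FPKM or more in both depleted lines the wildtype libraries were listed at 0, vamp8 among them. The replication helicase relative mcm6l had 74.2 FPKM in MZnup133 and 8.09 in Melys (adjusted p = 0.336). The complex I subunit gene ndufs8b had 22.5 FPKM in MZnup133, 6.99 in Melys and 6.33 in Tgnup133 (adjusted p = 0.151), and si:dkey-112a7.4 had 23.6, 7.42 and 5.35 (adjusted p = 0.114). In these 3 the MZnup133 level was the higher of the 2 lines.

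Losses of the same kind numbered 12 genes that were listed at 0 in both depleted libraries and at 5 FPKM or more in both wildtype ones. The gene mettl2a was among them. The Fanconi anaemia core complex gene fancg, which acts in the repair of DNA crosslinks, was at 22.3 and 30.3 FPKM in wildtype and 30.04 in Tgnup133 (adjusted p = 0.0799). The mitochondrial acyl carrier and complex I gene ndufab1a was at 11.7 and 13.5 FPKM in wildtype (adjusted p = 0.161), and si:rp71-36a1.5 at 16.6 and 29.1 (adjusted p = 0.287). BX548073.3 had 14.2 and 9.96 FPKM in wildtype and 0.237 in Tgnup133 (adjusted p = 0.0814), and si:ch1073-190k2.1 had 15.5 and 8.67 FPKM in wildtype (adjusted p = 0.106). At 3 hpf the transcripts listed at 0 were absent from both mutant libraries as the table reports them. An exact 0 in such a table can also be an estimate that failed. Both depleted libraries listed more genes at 0 than either wildtype library, and the bearing of this on the counts of losses was not tested. Absence did not always last. In MZnup133 si:rp71-36a1.5 was at 26.4 FPKM at 4 hpf and 29.0 at 4.5 hpf, against 21.1 and 16.6 in its wildtype. In Melys it stayed at 0. The other examples stood close to 0 in the depleted lines. The polyubiquitin gene UBB was at 31.7 and 49.4 FPKM in wildtype, 0.907 in MZnup133 and 1.11 in Melys (adjusted p = 0.121). The gene zgc:153981 was at 28.6 and 11.1 FPKM in wildtype, 0.333 in MZnup133, 0 in Melys and 0.204 in Tgnup133 (adjusted p = 0.0575).

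Some abundant transcripts, chosen after their values were seen, show the shared differences in RNA of high level. The cell-surface glycoprotein gene thy1 was at 408 and 354 FPKM in wildtype, 37.8 in MZnup133, 104 in Melys and 21.0 in Tgnup133 (adjusted p = 0.222). The actin-binding thymosin gene tmsb5 was at 246 and 219 FPKM in wildtype, 54.2 in MZnup133 and 15.5 in Melys (adjusted p = 0.0799). The lysosomal protease gene ctsc was at 148 and 113 FPKM in wildtype, 317 in MZnup133 and 322 in Melys (adjusted p = 0.243). In each, both depleted libraries lay on one side of both wildtype libraries, as in 43.4% of all genes tested. These genes were picked from the same values, so nothing is read from this.

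Genes of the oocyte and of the maternal supply were next read by list. The lists were drawn up with earlier results of these data known, and the counts below describe them beside the 2.34% and 2.27% of all genes tested that were 2-fold higher or lower. The median mean difference of all genes tested was 0. Beside each count of 0 from the test (limma), the number at an unadjusted p under 0.05 is given. Over all genes tested that number was 1646 of 13501, so list counts near this share are no excess. Of 39 maternal oocyte genes tested, 0 passed the test of both lines (7 unadjusted), 2 were 2-fold higher in both pairs and 3 lower, with a median difference of 0. The oocyte transcription factor gene figla, which drives egg coat genes in mouse, was at 3.96 and 5.46 FPKM in wildtype, 23.0 in MZnup133 and 15.5 in Melys (adjusted p = 0.184). The ubiquitin ligase gene rnf41 was at 2.96 and 0 FPKM in wildtype, 7.83 in MZnup133 and 14.3 in Melys (adjusted p = 0.33). On the low side, the LIM homeobox gene lhx8a, which in mouse is needed for oocyte growth, was at 23.9 and 21.3 FPKM in wildtype, 5.15 in MZnup133 and 6.93 in Melys (adjusted p = 0.178).

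Values differed among egg coat genes of the zona pellucida family, and none of those given here passed the test of both lines (limma). The gene zp3 was at 16.5 and 17.4 FPKM in wildtype, 4.57 in MZnup133 and 5.33 in Melys (adjusted p = 0.241). One of the 2 identifiers named zp3.2 was at 130 and 119 FPKM in wildtype, 47.9 in MZnup133 and 45.9 in Melys (adjusted p = 0.121), while the other was at 40.1 and 28.7 in wildtype, 49.0 in MZnup133 and 31.4 in Melys. The relatives zp3f.1 and zp3f.2, named after their values were seen, had 58.4 and 18.3 FPKM in the wildtype of the nup133 pair and 3.39 and 6.49 in MZnup133. In the elys pair they had 56.0 and 24.6 FPKM in wildtype and 14.9 and 7.89 in Melys. Reads shared among such close copies could have been split between them by the upstream estimation.

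Further maternal genes are given with their values. The germ line RNA helicase gene ddx4 was at 165 and 171 FPKM in wildtype, 145 in MZnup133 and 159 in Melys, a difference of −0.15 ± 0.11 (SE, log2; adjusted p = 0.654). The linker histone gene h1m was at 1070 and 994 FPKM in wildtype, 901 in MZnup133 and 1040 in Melys. For the Balbiani body organizer gene buc the levels were 452 and 423 FPKM in wildtype, 270 in MZnup133 and 332 in Melys (−0.55 ± 0.35, adjusted p = 0.593). Of 26 germ plasm genes, 0 passed the test (6 unadjusted), and 2 were 2-fold higher in both pairs. The scaffold gene grip2a, needed in zebrafish for the transport of maternal dorsal determinants, had 17.4 and 17.6 FPKM in wildtype, 37.4 in MZnup133, 37.1 in Melys and 20.8 in Tgnup133 (1.05 ± 0.31, adjusted p = 0.269). Of the 2 identifiers named kif5ba, for a kinesin heavy chain, one was at 1.40 and 0.788 FPKM in wildtype, 11.6 in MZnup133 and 4.53 in Melys (adjusted p = 0.245), and the other was at 66.0 and 51.9 FPKM in wildtype, 49.8 in MZnup133 and 61.9 in Melys.

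The maternal factors Nanog, Sox19b and Pou5f3 open the zygotic genome in zebrafish. Their list held 24 tested transcription regulators, of which 0 passed the test (2 unadjusted). The pluripotency factor gene nanog was at 1010 and 1020 FPKM in wildtype, 893 in MZnup133 and 1020 in Melys (−0.09 ± 0.12, adjusted p = 0.822). The SoxB1 gene sox19b was at 653 and 650 FPKM in wildtype, 561 in MZnup133 and 654 in Melys. The POU factor gene pou5f3 was at 433 and 450 FPKM in wildtype, 576 in MZnup133 and 690 in Melys (0.51 ± 0.22, adjusted p = 0.42). Both depleted libraries were above both wildtype ones, as in 22.9% of all genes tested. The Nodal effector gene foxh1 was at 124 and 110 FPKM in wildtype, 40.1 in MZnup133 and 89.3 in Melys. It fell in MZnup133 by the test of that line (adjusted p = 0.0334, limma), and the difference of both lines did not pass (adjusted p = 0.314).

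RNA-binding and RNA-clearance factors, which decide how long maternal RNA lasts, held no member of the shared set. Of 39 genes tested, 0 passed the test of both lines (6 unadjusted) and 0 were 2-fold apart in both pairs. The deadenylation adaptor gene btg4 was at 127 and 142 FPKM in wildtype, 109 in MZnup133 and 132 in Melys. The m6A reader gene ythdf2 was at 46.6 and 51.1 FPKM in wildtype, 70.8 in MZnup133 and 58.3 in Melys (0.39 ± 0.16). The decay factor gene cth1 was at 1110 and 1190 FPKM in wildtype, 1130 in MZnup133 and 1310 in Melys.

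The nuclear pore list, nup133 included, held no member of the shared set. Of 29 tested, 0 passed the test of both lines (3 unadjusted) and 0 were 2-fold apart in both pairs. The Y complex subunit gene sec13 was at 90.9 and 95.4 FPKM in wildtype, 52.2 in MZnup133 and 64.9 in Melys (−0.67 ± 0.14, adjusted p = 0.18). The lowest levels of sec13 were in the depleted libraries, as in 20.6% of all genes tested. A further Y complex gene, seh1l, was at 90.2 and 80.1 FPKM in wildtype, 63.5 in MZnup133 and 75.6 in Melys (−0.29 ± 0.16). The other Y complex genes did not share one direction. The gene nup107 was at 51.0 and 43.9 FPKM in wildtype, 37.3 in MZnup133 and 52.0 in Melys, and nup160 at 27.3 and 21.1 FPKM in wildtype, 20.6 in MZnup133 and 40.01 in Melys. The membrane-anchored ndc1 was at 140 and 131 FPKM in wildtype, 198 in MZnup133 and 162 in Melys (0.40 ± 0.12).

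Of 34 nuclear transport factors, 0 passed the test of both lines (3 unadjusted) and 0 were 2-fold apart in the same direction. The RNA of ran, the GTPase that gives transport its direction, was at 628 and 600 FPKM in wildtype, 571 in MZnup133 and 381 in Melys (−0.40 ± 0.14). The maternal importin alpha gene kpna7 was at 126 and 119 FPKM in wildtype, 278 in MZnup133 and 123 in Melys. The exportin gene xpo6 went the other way in MZnup133, at 152 and 120 FPKM in wildtype, 0 in MZnup133 and 132 in Melys. Over the list, values were positive in both pairs for 12 genes and negative in both for 12. The lamina and envelope list had 12 genes tested, of which 0 passed (2 unadjusted) and 0 were 2-fold apart in both pairs.

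The first genes that the embryo itself transcribes were read next. Of 59 early zygotic genes tested, 0 passed the test of both lines (10 unadjusted), 6 were 2-fold lower in both pairs and 2 higher. Negative values in both pairs were seen for 19 of the 59, and positive ones for 6, where 27.2% and 29.4% of all genes tested had such values. Such a lean was not particular to this list. Negative and positive values were seen for 13 and 3 of 24 heat shock and chaperone genes. They were seen for 8 and 0 of 13 mitochondrially encoded genes and for 19 and 8 of 45 translation factors. Among 40 chromatin regulators the lean was the other way, with 8 negative and 21 positive. The median difference of the early zygotic list was −0.12, with medians of 0 in the MZnup133 pair and −0.09 in the Melys pair. The setting mattered for the early zygotic list, whose levels were low. With a pseudocount of 0.1 its 2-fold genes were 16 lower and 3 higher with a median of −0.709, with scaling outside the mitochondrial genome 13 lower and 2 higher with a median of −0.278, and with a pseudocount of 5 they were 2 lower and 0 higher. The bHLH repressor gene her5 was at 9.52 and 9.94 FPKM in wildtype, 1.01 in MZnup133 and 2.36 in Melys (−2.05 ± 0.42, adjusted p = 0.17). The Krüppel-like factor gene klf17 was at 17.0 and 13.9 FPKM in wildtype, 4.60 in MZnup133 and 3.00 in Melys (−1.79 ± 0.37, adjusted p = 0.17). Tgnup133 had 20.7 and 34.3 FPKM of these RNAs.

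The homeobox gene irx7 was at 9.995 and 6.95 FPKM in wildtype, 0.623 in MZnup133 and 1.24 in Melys (adjusted p = 0.24). The ventral repressor gene vox was at 3.78 and 6.83 FPKM in wildtype, 0.546 in MZnup133 and 0.819 in Melys (adjusted p = 0.23). The notochord gene noto, at 2.32 and 2.01 FPKM in wildtype and 0 in both depleted libraries, and the SoxB1 gene sox3, at 5.89 and 5.76 FPKM in wildtype, 1.46 in MZnup133 and 1.69 in Melys, completed the 6. The other 2 members lay on the opposite side. The zinc finger gene znfl2a was at 0 and 1.40 FPKM in wildtype, 19.8 in MZnup133 and 6.81 in Melys, and the segmentation gene her7 at 0.958 and 0 FPKM in wildtype, 5.17 in MZnup133 and 3.11 in Melys.

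Markers of the first embryonic layers were near 0 at this stage. Enveloping layer markers summed to 2.86 FPKM in wildtype and 1.36 in MZnup133, with 4 and 5 of 8 at 0, and to 7.20 in wildtype and 0.462 in Melys, with 4 and 7 at 0. Yolk syncytial layer markers summed to 2.82 FPKM in wildtype and 0.241 in MZnup133, with 6 of 7 at 0 in both, and to 3.18 in wildtype and 1.54 in Melys, with 6 and 5 at 0. Single genes made up most of these sums. The keratin gene krt8 was at 2.26 and 5.17 FPKM in wildtype, 0.467 in MZnup133 and 0.462 in Melys, and the yolk syncytial regulator gene mxtx2 at 2.82 and 3.18 in wildtype, 0 in MZnup133 and 1.34 in Melys. Other markers went the other way, such as gata6 at 0 in both wildtype libraries, 0.241 in MZnup133 and 0.197 in Melys. Their part in the zygotic differences was not tested.

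Stress and signal-response lists gave few members. Of 24 heat shock and chaperone genes, 0 passed the test of both lines (7 unadjusted) and 1 was 2-fold lower in both pairs, with a list median of −0.26. That one, the small heat shock protein gene hspb1, was at 9.999 and 8.18 FPKM in wildtype, 2.83 in MZnup133 and 1.82 in Melys (−1.61 ± 0.42, adjusted p = 0.24). In wildtype it climbed to 643 and 575 FPKM by 4.5 hpf, against 127 in MZnup133 and 209 in Melys. The endoplasmic reticulum chaperone gene hspa5 was at 271 and 253 FPKM in wildtype, 184 in MZnup133 and 183 in Melys (−0.51, adjusted p = 0.198). Of 15 immediate early genes, 0 passed the test of both lines (3 unadjusted), and the list median was −0.25. Values were negative in both pairs for 7 of them and positive for 3. The nuclear receptor gene nr4a1 was the 1 that was 2-fold higher in both pairs. It was at 1.86 and 0.655 FPKM in wildtype, 19.96 in MZnup133, 33.1 in Melys and 1.05 in Tgnup133 (3.62 ± 0.61, adjusted p = 0.139). The 2 interferon-linked members among 11 tested had low levels throughout. The gene stat2 was at 2.77 and 2.41 FPKM in wildtype, 7.22 in MZnup133 and 6.64 in Melys, and the double-stranded RNA sensor kinase gene eif2ak2 was at 0.660 and 0.120 FPKM in wildtype, 2.49 in MZnup133 and 1.64 in Melys.

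Protein synthesis and turnover genes contributed single members. Among 83 ribosomal protein genes, 1 passed the test (rpl10) and 2 were 2-fold higher in both pairs, with a list median of 0.11. The pairs did not share a direction, with medians of −0.09 in the MZnup133 pair and 0.32 in the Melys pair. The second, the stalk protein gene rplp2, was at 20.5 and 2.99 FPKM in wildtype, 92.2 in MZnup133 and 16.2 in Melys. Its wildtype libraries were themselves far apart (adjusted p = 0.172). Among 45 translation factors the start-codon factor gene eif5 was the 1 that was 2-fold lower in both pairs, at 158 and 139 FPKM in wildtype, 59.8 in MZnup133, 58.0 in Melys and 90.5 in Tgnup133. At −1.32 ± 0.13 it missed the threshold (adjusted p = 0.0569), and it passed in limma with a robust variance estimate (0.0486), a pseudocount of 5 (0.0406) and a minimum mean of 5 FPKM (0.0447). Of 39 proteasome genes, the catalytic subunit gene psmb5 was at 34.3 and 14.6 FPKM in wildtype, 147 in MZnup133 and 70 in Melys (2.13 ± 0.24, adjusted p = 0.0787). The immunoproteasome counterpart psmb8a was at 1.24 and 3.24 FPKM in wildtype and listed at 0 in both depleted libraries.

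Chromatin and cell cycle lists gave single members. Among 40 chromatin regulators 0 passed the test (5 unadjusted), 1 was 2-fold higher and 1 lower in both pairs. The histone demethylase gene kdm1a was at 10.1 and 11.5 FPKM in wildtype, 49.8 in MZnup133, 57.1 in Melys and 59.95 in Tgnup133 (2.21 ± 0.29, adjusted p = 0.0946). The NuRD subunit gene mbd3b was at 3.63 and 4.18 FPKM in wildtype and listed at 0 in both depleted libraries, with 17.9 in Tgnup133. Of 47 cell cycle genes 0 passed (5 unadjusted) and 0 were 2-fold apart in the same direction, and of 22 condensin and cohesin genes ncapg was the 1 member. Of 30 histone genes 3 were 2-fold higher in both pairs. The variant histone gene h2ax was at 9.27 and 0.677 FPKM in wildtype, 27.5 in MZnup133 and 23.0 in Melys. The other 2 were identifiers named hist1h4l, for histone H4, whose many near-identical copies make single values uncertain.

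Vesicle fusion genes held vamp8 alone among 28 tested, and 29 dorsal-ventral axis genes held grip2a and kif5ba. Among 64 listed nuclear genes of oxidative phosphorylation, ndufab1a was the 1 member, and the list median was −0.13. The medians were 0.02 in the MZnup133 pair and −0.23 in the Melys pair. The complex I gene ndufs8b, given above as higher in both lines, was not on this list. Of the 13 mitochondrially encoded genes 0 passed the test of both lines (3 unadjusted) and 0 were 2-fold apart in both pairs. Their median difference was −0.06 in the MZnup133 pair and −0.62 in the Melys pair. The cytochrome oxidase gene mt-co2 was at 6200 FPKM in wildtype and 6540 in MZnup133, and at 5780 in wildtype and 2610 in Melys. The cytochrome b gene mt-cyb stood at 3810 and 3700, and at 3520 and 1610, and fell in Melys by the test of that line (adjusted p = 0.0372, limma).

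**Figure D3:**
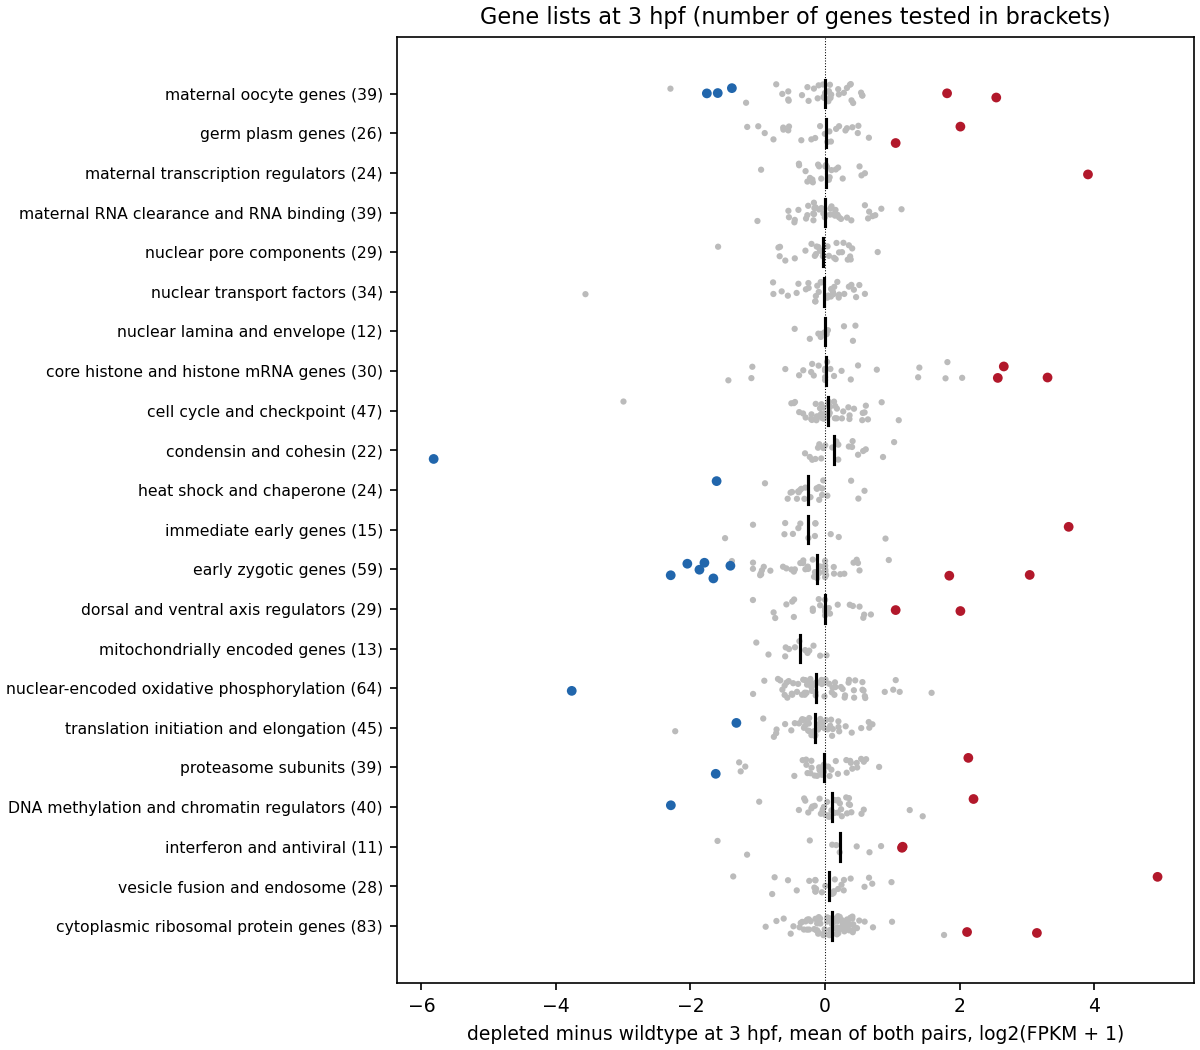
Each point is a tested gene of one of 22 lists, placed by its mean difference of both pairs at 3 hpf in log2(FPKM + 1), with the black bar at the list median. Red and blue points are genes at least 2-fold higher or lower in both pairs. All list medians lie between −0.38 and 0.22, and the coloured genes number from 0 to 8 in a list, with 8 of 59 early zygotic genes.

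The 2-fold rule used the libraries of 3 hpf alone, while the filter on low values used the mean over all 3 stages. Of the 316 genes that were higher, 119 (37.7%) were again 2-fold higher in both pairs at 4 hpf and 130 (41.1%) at 4.5 hpf. Over all genes tested, 3.8% and 5.44% were 2-fold higher in both pairs at these stages. Of the 306 that were lower, 124 (40.5%) and 107 (35%) were again 2-fold lower, against 3.96% and 4.25% of all genes tested. With the filter applied to the 4 libraries of 3 hpf alone, a setting chosen after seeing the data, 329 genes were higher and 313 lower. Of these 36.5% and 39.8% of the higher genes were again 2-fold higher at 4 and 4.5 hpf, against 3.87% and 5.52% of all genes, and 39.3% and 32.9% of the lower genes again lower, against 2.21% and 2.23%. In 86 of the higher and 88 of the lower genes the difference was 2-fold in both pairs at all 3 stages. The median difference of the higher genes went from 1.73 at 3 hpf to 1.19 and 1.25, and that of the lower genes from −1.73 to −1.15 and −0.99. The rule picked large differences at 3 hpf from single libraries, so smaller later medians follow in part from it.

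The test of both lines (limma) passed 0.356% of all genes at 4 hpf and 3.87% at 4.5 hpf. By this test 12 of the 316 passed as higher at 4 hpf, where 0.104% of all genes did, and 50 at 4.5 hpf, where 2.29% did. Of the 306, 13 passed as lower at 4 hpf and 48 at 4.5 hpf, beside 0.252% and 1.59% of all genes tested. The stages share 1 fit and its residual spread. Among the tested genes described above, vamp8, slmapb and rpl10 passed at both later stages as higher, with adjusted p between 0.00889 and 0.0261. The losses of ncapg, mettl2a, odf3l2a, zgc:113208 and mccc2 also passed at both, with adjusted p between 0.00889 and 0.0343. The gene kctd17 passed at 4.5 hpf (adjusted p = 0.0359) and missed at 4 hpf (0.0526).

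**Figure D4:**
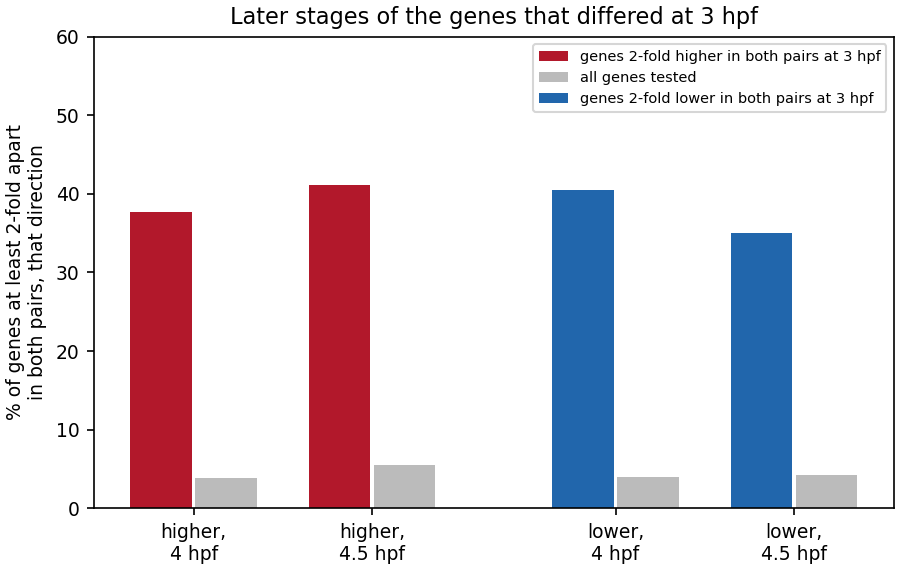
Percentage of genes at least 2-fold apart in both pairs in the stated direction at 4 and 4.5 hpf, for the 316 higher (red) and 306 lower (blue) genes at 3 hpf and for all 13501 genes tested (grey). Between 35% and 41.1% of the genes kept a 2-fold difference, against 3.8% to 5.44% of all genes.

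Other members faded. In 17 of the higher and 24 of the lower genes the difference was under 0.5 in size in both pairs by 4.5 hpf. The share of all genes tested with such small differences was not counted. The genes spock1, lhx8a and her5, given next, are not among these. At 4.5 hpf their differences in the MZnup133 and Melys pairs were 0.582 and 1.936, 0.868 and 0.539, and 0.613 and 0.259. The RNA of spock1 in MZnup133 went from 22.9 FPKM at 3 hpf to 11.4 at 4 hpf and 0.497 at 4.5 hpf, and in Melys from 38.8 to 4.50 and 3.52, while the wildtype libraries stayed at 0.498 or below. The oocyte gene lhx8a, low in both lines at 3 hpf, was at 20.4 FPKM in MZnup133 and 11.9 in Melys at 4 hpf, against 8.58 and 12.4 in wildtype. The zygotic gene her5 reached 193 and 225 FPKM in wildtype at 4 hpf, 37.8 in MZnup133 and 155 in Melys. At 4.5 hpf it was at 93.4 and 140 FPKM in wildtype, 143 in MZnup133 and 167 in Melys, so that the wildtype libraries no longer stood above the depleted ones.

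A few genes changed sides by 2-fold in both pairs, and these were named after their values were seen. Smaller changes of sign were not counted. At 4 hpf 3 of the higher genes were 2-fold lower in both pairs (tfap2a, si:ch211-191i18.4 and CR848746.1), and 1 of the lower genes was 2-fold higher (znf1157). At 4.5 hpf it was 5 (tfap2a, si:ch211-191i18.4, oip5-as1, CR450686.5 and crip2l) and 3 (BX530075.2, si:dkeyp-20g2.3 and rarres3l). Of all genes tested, 3.96% were 2-fold lower and 3.8% 2-fold higher in both pairs at 4 hpf. At 4.5 hpf these shares were 4.25% and 5.44%. The ectodermal transcription factor gene tfap2a was at 0.163 and 1.05 FPKM in wildtype at 3 hpf, 2.66 in MZnup133 and 3.43 in Melys. By 4.5 hpf it was at 57.5 and 56.4 FPKM in wildtype, 25.01 in MZnup133 and 12.04 in Melys. The gene si:ch211-191i18.4 went in wildtype from 0.490 and 0.354 FPKM to 53.2 and 25.9, in MZnup133 from 4.72 to 1.84 and in Melys from 2.56 to 1.63. It fell below wildtype at 4.5 hpf (adjusted p = 0.0349), as did the RNA oip5-as1 (adjusted p = 0.0425), the 2 members that passed the test in the other direction at that stage. Of all genes tested, 1.59% passed as lower there.

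**Figure D5:**
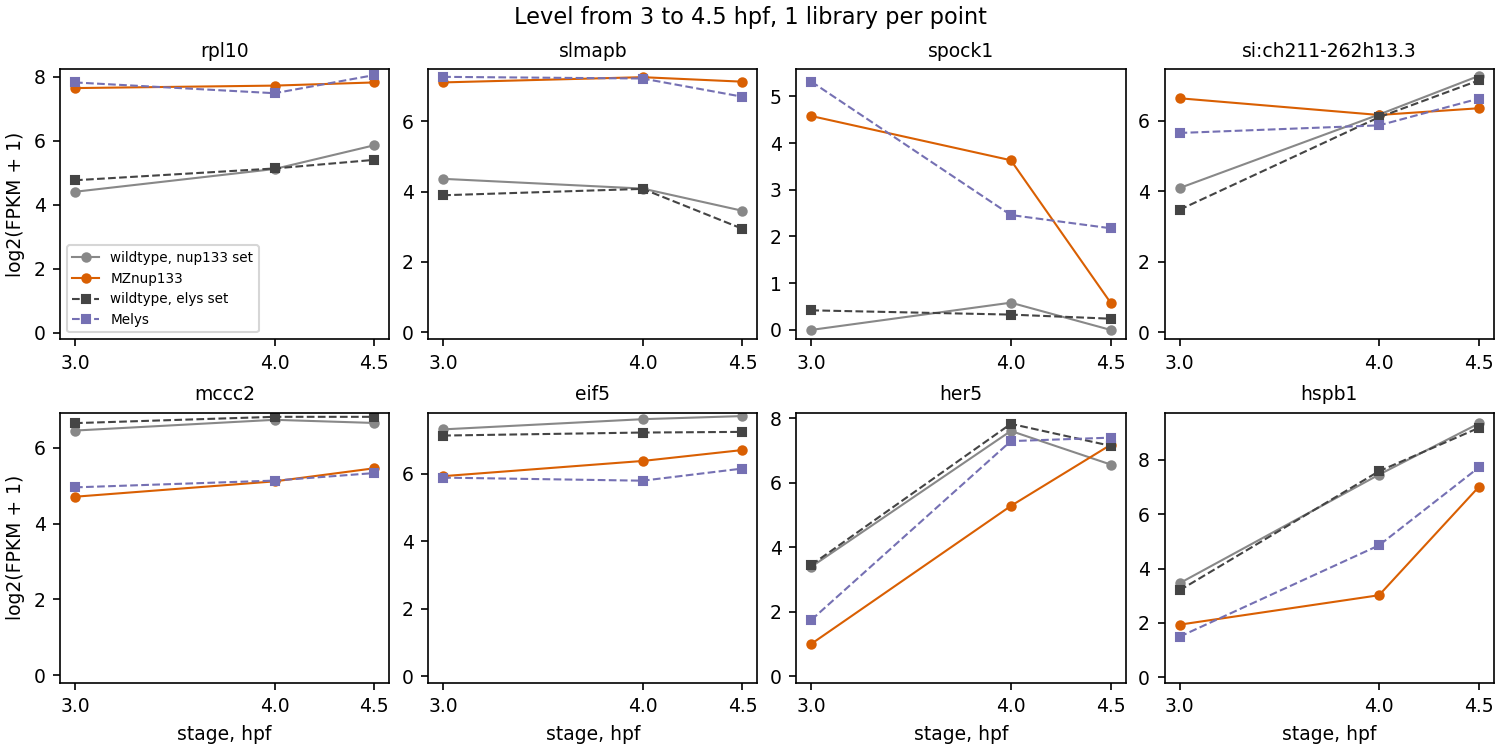
Level of 8 genes at 3, 4 and 4.5 hpf as log2(FPKM + 1), with 1 library per point, circles and solid lines for the nup133 pair and squares and dashed lines for the elys pair. The depleted lines stay apart from wildtype for rpl10, slmapb, mccc2 and eif5, approach it for spock1, and for si:ch211-262h13.3 start above it and end below it at 4.5 hpf.

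The test of the difference between the lines passed 147 genes (1.09%) at 3 hpf, 80 with the higher effect in MZnup133 (0.593%) and 67 with the higher effect in Melys (0.496%), and 3 of the 147 belonged to the 622. The rule took genes that moved alike in both lines, so nothing is read from that count. The gene tmsb5 was lower in Melys (difference of the effects 1.57, adjusted p = 0.031, limma). The others, tmem45a and si:dkey-109l4.3, were lower in MZnup133. They were at 25.1 and 19.99 FPKM in wildtype and 0.276 and 0.472 in MZnup133, and at 27.2 and 29.0 in wildtype and 11.7 and 11.6 in Melys (adjusted p = 0.0492 and 0.0468). Each line was also tested alone, in a fit of another form whose counts cannot be set against those of the lines together. MZnup133 passed 385 (2.85%), 155 higher (1.15%) and 230 lower (1.7%), and Melys 155 (1.15%), 56 higher (0.415%) and 99 lower (0.733%). The split turned without the filter on low values, with 299 higher and 91 lower for MZnup133 and 148 and 31 for Melys. With a pseudocount of 5 MZnup133 had 333 higher and 280 lower. Without either wildtype library MZnup133 passed 0 genes (2224 and 2710 at an unadjusted p under 0.05, limma) and Melys 0 to 7.

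Some members were neighbours along the chromosomes. By the gene order of the assembly GRCz12tu, on which 11331 tested genes and 465 members could be placed, 12% of the placed members had another member as the next placed gene, against 7.7% of the other placed genes. No test was made of this share. There were 30 adjacent pairs, 23 in the same direction. The genes smarcad1a, tspan36 and mapk4 lay in a row and were all 2-fold higher in both pairs. The chromatin remodeller gene smarcad1a was at 11.1 and 14.9 FPKM in wildtype, 50.3 in MZnup133 and 59.2 in Melys, and its neighbour tspan36 at 13.5 and 2.77 in wildtype, 52.5 in MZnup133 and 64.8 in Melys. The kinase gene mapk4 was at 4.92 and 4.14 FPKM in wildtype, 16.2 in MZnup133 and 15.6 in Melys.

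Other adjacent members in the same direction were zp3 with zp3.2, zp3f.1 with zp3f.2, psmb8a with psmb12, fancg with vcp, ndufab1a with palb2 and nr4a1 with dgkaa and rnf41. The segregase gene vcp was at 58.6 and 45.9 FPKM in wildtype, 15.3 in MZnup133 and 9.98 in Melys (adjusted p = 0.0799). Of all placed genes tested, 4.1% were members. Of the 20 placed genes within 10 of nup133, 1 was a member (ccsapa, lower in both lines), and of the 20 around ahctf1 also 1 (sccpdha.1, higher in both lines). Members on opposite sides included gene duplicates, named after their values were seen. The gene rassf8b was at 6.17 and 6.83 FPKM in wildtype, 0 in MZnup133 and 0.41 in Melys, while rassf8a was at 2.19 and 1.99 in wildtype, 7.35 in MZnup133 and 5.02 in Melys. In the same way syt7a was at 5.99 and 3.90 FPKM in wildtype, 0.345 in MZnup133 and 0.508 in Melys, and syt7b at 0.662 and 1.18 in wildtype, 4.2 in MZnup133 and 5.21 in Melys. Whether reads were shared between such duplicates was not tested.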

How the data were processed

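The deposited values were FPKM for each gene and library, computed by the authors. Per the submitters' processing notes, the build was GRCz11 and the tools were Cufflinks 2.2.1, STAR 2.5.3a and Trim Galore. The order of steps, their options and the annotation were not given in the sources used here. From 23800 lines, 74 repeats were dropped, leaving 23726 genes. Symbols were used as the file pairs them with identifiers. The reference table named 64 of the 71 genes without a symbol. More than 1 identifier had the same symbol in 363 cases.

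Two-sided tests were run in limma 3.58.1 (R 4.3.3) on log2(FPKM + 1), with a trended variance. They took the 13501 genes whose mean reached 1 FPKM over 12 libraries, with p adjusted over these by Benjamini-Hochberg. The libraries were wildtype, MZnup133 and Melys at 3, 4 and 4.5 hpf. Calls needed an adjusted p under 0.05. The test of both lines fitted each control set separately at each stage, plus 1 depletion effect per stage, with 3 residual and 3.05 prior degrees of freedom. The tests of single lines and of their difference fitted 9 means, 1 per genotype and stage, and a term for the control set, with 2 residual and 2.36 prior degrees of freedom, and took each lone mutant library to vary like wildtype. The fits were also run on simulated data in which all libraries of a gene varied alike. Such data cannot check whether a lone mutant library varies like wildtype. Wildtype and mutant libraries were paired because the titles name each line's control. Nothing says which libraries came from separate clutches, so the library spread behind the p-values may be technical. In the test of both lines the residual spread also holds real differences between the effects of the lines.

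The genes and lists were chosen with earlier results of these data known. The text names nup133 and ahctf1, genes past the test or with the largest shared differences at a mean of at least 5 FPKM, genes at 0 on one side, list members past the test or 2-fold apart in both pairs, the 5 largest differences between the lines of each sign, and other list members with their values. Exceptions are marked as chosen after their values were seen. Neighbours were read from gene order in GRCz12tu, a build other than that of the files, and no coordinates are given. Alternatives were the pseudocount, the filter, the scaling, the libraries in the fit, the pairing and the fold. Some results that the rule would name are not reported here.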

Additional observations from a re-analysis of the deposited data

Results flagged for a closer look

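The effects of the lines at 3 hpf differed by the test of the difference itself (limma, adjusted p under 0.05) for 147 genes, 80 with the higher effect in MZnup133 and 67 with the higher effect in Melys. Of each sign, genes among the 5 with the largest differences are given, with the difference of the MZnup133 and Melys effects on the log2(FPKM + 1) scale. Where a library is at 0 that difference depends on the pseudocount, and an exact 0 can be a failed estimate.

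The phosphatase regulator gene ppp1r8b was at 18.5 FPKM in wildtype and 0 in MZnup133, and at 0.0668 in wildtype and 90.1 in Melys (−10.62, adjusted p = 0.0137). The gene zgc:56699 was at 182 FPKM in wildtype and 265 in MZnup133, and at 0 in wildtype and 702 in Melys (−9.37, adjusted p = 0.0137). In both, the wildtype libraries of the stage were also far apart. The exportin gene xpo6 was at 152 FPKM in wildtype and 0 in MZnup133, and at 120 in wildtype and 132 in Melys (−7.79, adjusted p = 0.0153). CT573006.1 was at 1.37 FPKM in wildtype and 0.744 in MZnup133, and at 0.977 in wildtype and 120 in Melys (−6.67, adjusted p = 0.0423). CT573006.1 was at 122 FPKM in Tgnup133 at 3 hpf, and at 0 in Melys at 4 and 4.5 hpf.

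In the other direction, si:dkeyp-20e4.8 was at 24.3 FPKM in wildtype and 1290 in MZnup133, and at 6.76 in wildtype and 0 in Melys (9.22, adjusted p = 0.0377). Its MZnup133 level was 13.8 FPKM at 4 hpf. CR383662.2 was at 102 FPKM in wildtype and 390 in MZnup133, and at 177 in wildtype and 0.959 in Melys (8.48, adjusted p = 0.00235). The RNA-binding protein gene tia1l was at 89.5 FPKM in wildtype and 252 in MZnup133, and at 111 in wildtype and 0 in Melys, with 5.87 in Tgnup133 (8.0, adjusted p = 0.00741). The complex I gene NDUFB1 was listed at 0 in every wildtype library and at 179 FPKM in MZnup133 and 0 in Melys at 3 hpf (7.49, adjusted p = 0.0156). At 4 hpf it was at 0 in MZnup133 and 124 FPKM in Melys. The gene cfdp1 was at 0 FPKM in wildtype and 21.8 in MZnup133, and at 9.11 in wildtype and 0 in Melys (7.46, adjusted p = 0.0365).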

How the results depend on the processing

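The 10 genes of the test of both lines became 17 with a pseudocount of 5, 5 without a variance trend, 120 with no replicate block, 0 without the filter on low values (2072 at an unadjusted p under 0.05, limma) and 0 from the 4 libraries at 3 hpf. The cause was not tested, except that the last 2 test more genes or use fewer libraries. Leaving out any 1 library at 3 hpf gave 0 to 0 genes, since 1 pair then carries the comparison. Under the other 6 settings run the count was 7 to 11. The 622 genes 2-fold apart became 1056 and 204 with pseudocounts of 0.1 and 5, 342 at a minimum mean of 5 FPKM, 1643 at 1.5-fold and 231 at 3-fold. Genes above 0 in all 4 libraries, a setting chosen after seeing the data, numbered 443. The number of 2-fold genes in a list moved by over 1.5 times in 25 list-by-setting values and by less in 113.

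For MZnup133 alone 385 became 613 with a pseudocount of 5 and 759 at a mean of 5 FPKM, and 0 to 0 without either wildtype library (2224 and 2710 at an unadjusted p under 0.05, limma). For Melys 155 became 427 at a mean of 5 FPKM and 0 to 7 without either wildtype library. The 147 genes that differed between the lines became 390 at a mean of 5 FPKM and 445 without a filter. Single genes kept direction and side of the threshold in 651 of the gene-by-setting values and lost the call in 73, gained it in 16 and reversed in 4. Only the 10 genes called in the main fit could lose a call, and most of the 651 values are of genes without one. The 651 therefore do not measure how stable the calls were. Without 1 library the difference of nup133 ran from −3.245 to 0.065, and that of ahctf1 from −0.446 to 0.175. Both reversed when the line depleted of that gene, or its wildtype, was left out. Pairing could not be seen in the values: deviations of the wildtype and depleted libraries of a set correlated over genes at 0.002, 0.032 and 0.012 at 3, 4 and 4.5 hpf. With no replicate block MZnup133 passed 380 genes and Melys 134. Scaling to the median ratio shifted the median of all genes by −0.01. Low depth cannot be judged from FPKM.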
